A study of Mus musculus with 24 samples.

Results

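Thyroid glands of Xb130-/- mice were compared with those of Xb130+/+ mice at 12 weeks of age (W12), on 8 of the 24 arrays of the series. These 8 arrays were chosen by the genotype and age in their titles, which give 3 months for this age, and by no measured value. Each array holds the RNA of the whole gland of 1 male mouse, hybridized to an Affymetrix mouse array that probes transcripts along their full length, with 4 separate mice per genotype. The other arrays hold 8 mice each at 2 weeks (W2) and 4 weeks (W4), again 4 per genotype. The W12 Xb130-/- mice, in which the gene Afap1l2 that encodes XB130 is disrupted, are LH7721, LH7723, LH7725 and LH7727. The W12 Xb130+/+ mice are LH7720, LH7722, LH7724 and LH7726. All animals were kept under a cycle of 12 h light and 12 h dark, no treatment was given, and the sources used here name neither the strain nor the hour at which the glands were taken. Values of single mice are given below in these orders, on the log2 scale of the deposited expression values. A difference is the mean of Xb130-/- mice less that of Xb130+/+ mice (n = 4 each). SE is its standard error from the limma fit of all 24 arrays. That fit shares a single spread per gene among all groups of age and genotype, so SE is the same at each age and is not the spread of the W12 mice alone.

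The thyroid gland is built of follicles, in which polarized thyrocytes take up iodide and couple it to thyroglobulin to make thyroid hormone. Thyrotropin (TSH) from the pituitary drives this work through its receptor and cyclic AMP, and it is released in larger amounts when thyroid hormone is low. XB130 is an adaptor protein of the cytoplasm that binds tyrosine kinases, phosphatidylinositol 3-kinase and the actin skeleton. Around the follicles lie a dense net of capillaries, connective tissue, macrophages and the calcitonin-producing C cells, and thymus, parathyroid, muscle and fat lie close to the gland.

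Afap1l2 was lower in every Xb130-/- mouse, at 9.28, 9.31, 9.43 and 9.37 in Xb130-/- glands against 10.64, 10.65, 10.70 and 10.80 in Xb130+/+ glands. The groups did not overlap, and the difference was −1.35 (SE 0.11, adjusted p = 1.13e-08 from limma). Thyroglobulin (Tg), the matrix of hormone synthesis, lay near the top of the scale in both genotypes, at 13.82 to 13.92 in Xb130-/- mice against 13.93 to 13.97 in Xb130+/+ mice. Its difference of −0.08 (SE 0.04) did not pass the test (adjusted p = 0.191 from limma), although it did with a trended and robust variance (0.0368) and after quantile normalization within each age (0.0105). The mean of the 10 thyrocyte markers measured was 11.83 to 12.01 in Xb130-/- mice and 11.72 to 11.85 in Xb130+/+ mice, so the labelled tissue was present on every array.

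The W12 Xb130-/- arrays were less alike (r = 0.981 to 0.993 across probe sets) than the Xb130+/+ arrays (r = 0.994 to 0.995), and pairs of unlike genotype correlated with r = 0.973 to 0.988. On the first principal component of these 8 arrays, with 33.6% of the variance, Xb130-/- mice lay between 56.3 and 127.5 and Xb130+/+ mice between −86.3 and −64.3. LH7725 held the highest score, and its array median of 7.27 and that of LH7727 (7.20) were above those of the other 6 arrays (7.12 to 7.15). Markers of neighboring tissues moved in parts of the Xb130-/- group. The mean of 16 thymocyte markers was 6.12, 5.98, 9.66 and 8.63 in Xb130-/- mice against 6.08, 6.23, 6.09 and 6.04 in Xb130+/+ mice. Only LH7725 and LH7727 were high, with Rag1 at 10.46 and 9.61 and Dntt at 10.33 and 8.48. In the remaining 6 mice Rag1 lay between 4.91 and 5.46 and Dntt between 4.98 and 5.42. Skeletal muscle markers (15 genes) averaged 8.43, 10.91, 10.66 and 9.52 in Xb130-/- mice against 8.18 to 8.61 in Xb130+/+ mice, high in all knockouts but LH7721. White adipocyte markers (9 genes) averaged 9.44, 9.53, 10.60 and 9.60 in Xb130-/- mice against 10.33 to 10.66 in Xb130+/+ mice, low in all knockouts but LH7725. The mean of 3 erythrocyte genes was 7.41 to 8.58 in Xb130-/- mice and 6.54 to 6.75 in Xb130+/+ mice, higher in every knockout. Counts are therefore also given without LH7725 and LH7727 for most lists, and the part of these tissues in a result was not tested unless a value is given.

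**Figure D1:**
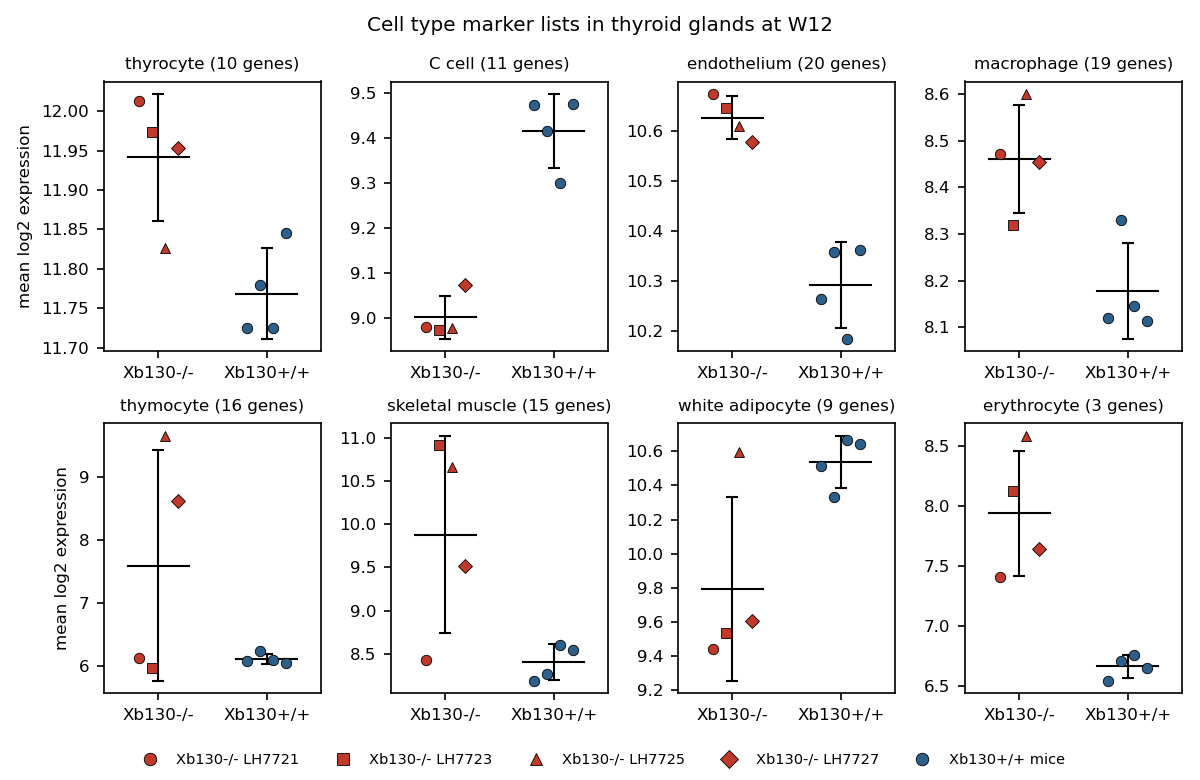
Mean log2 expression of the measured markers of 8 cell types in each W12 mouse (points), with Xb130-/- mice left of Xb130+/+ mice and bars for the group mean ± SD (n = 4 each). Thymocyte means of 9.66 and 8.63 stand out in 2 Xb130-/- mice, while the endothelial means of all Xb130-/- mice (10.58 to 10.68) lie above all Xb130+/+ mice (10.18 to 10.36).

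Of 23185 genes tested, 2184 were higher in Xb130-/- glands at W12 (9.42%) and 2424 were lower (10.5%), at an adjusted p under 0.05 from limma. The median difference over all genes was −0.05, and called changes had a median size of 0.44. The balance of directions depended on scaling, since 47.4% of the calls were increases in the deposited values and 31.8% after the arrays were shifted to the same median, which moved the median of all genes to −0.11. All 4 Xb130-/- values lay above all 4 Xb130+/+ values for 2411 genes (10.4%) and below them for 2809 (12.1%), and 755 of the called genes overlapped between the genotypes. Without LH7725 and LH7727, 1564 genes were higher (6.75%) and 1656 lower (7.14%), among them 1458 of the 2184 higher genes and 1423 of the 2424 lower genes. With 9.42% higher and 10.5% lower among all genes, several gene groups stood far from the background. Genes of mitosis had 60 of 67 measured members higher and none lower, immediate-early genes 20 of 31, and integrins 19 of 33. Among the lists with more losses than gains, genes of the circadian clock had 11 of 20 members lower, of the tricarboxylic acid (TCA) cycle 11 of 29, and of protein folding in the endoplasmic reticulum (ER) 16 of 40. The clock list was put together after values had been seen, and the others named here with earlier results known, so these shares are descriptions.

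**Figure D2:**
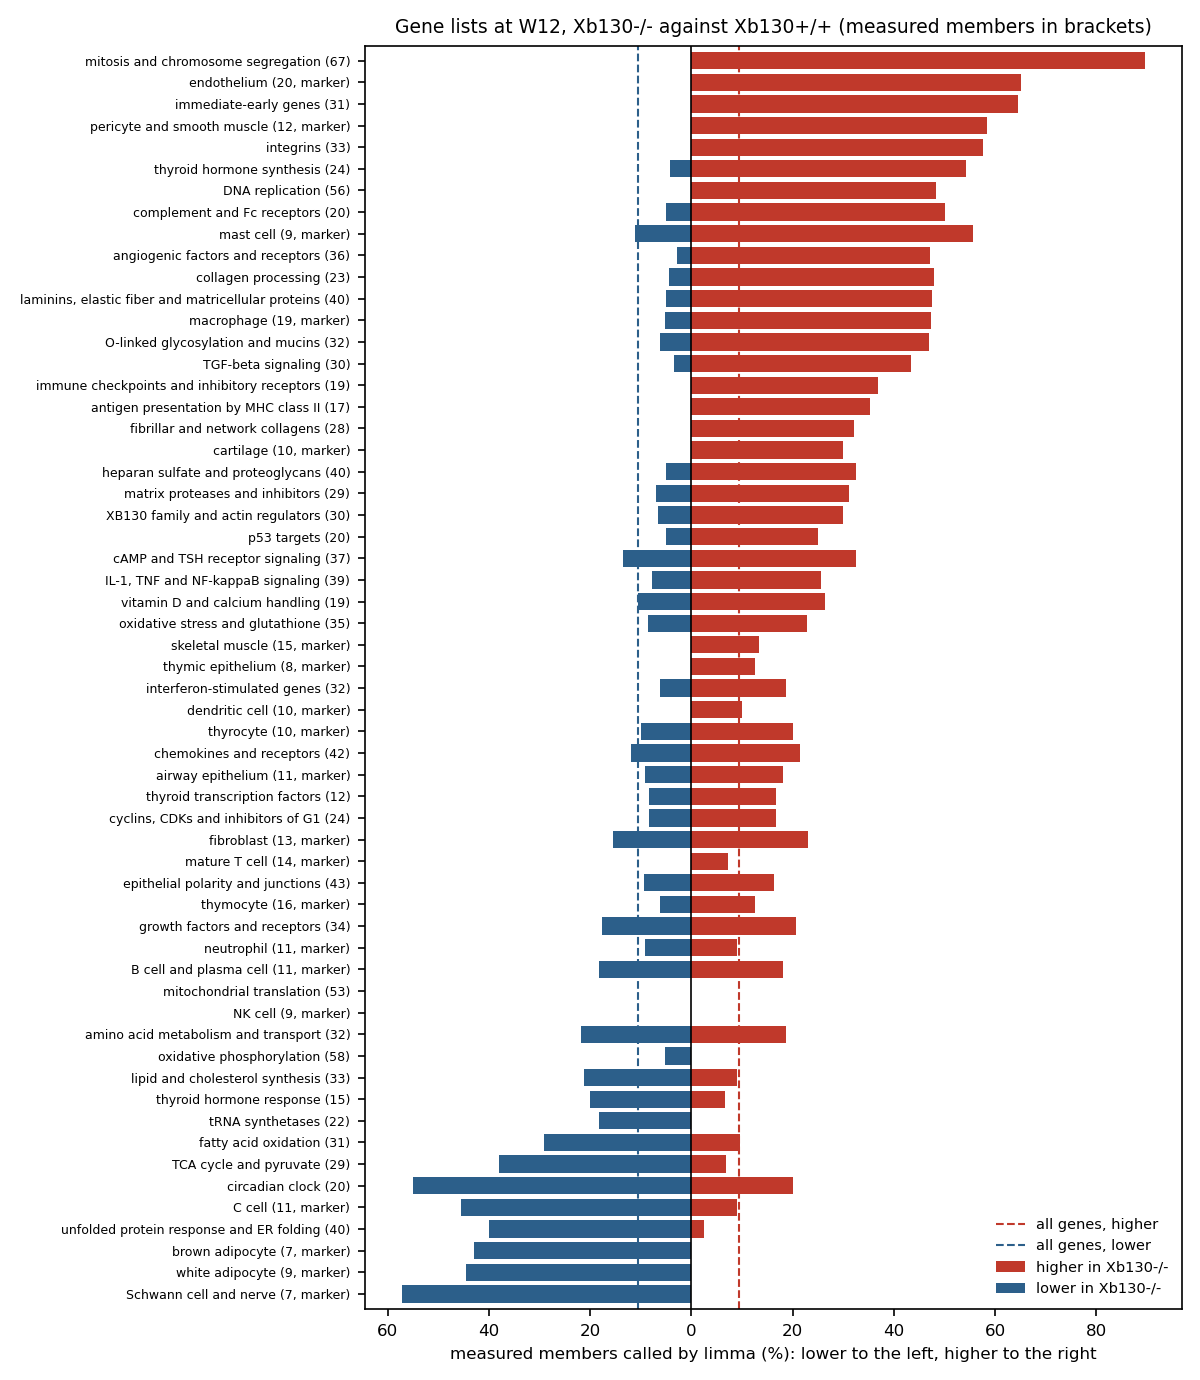
Percent of the measured members of each gene list that were higher (right) or lower (left) in W12 Xb130-/- glands at an adjusted p under 0.05 from limma. Dashed lines give the shares over all genes (9.42% higher, 10.5% lower), and mitosis, with 60 of 67 members higher, has the longest bar among the lists drawn, which leave out the Dcpp and Klk1b genes.

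The largest increases were those of the Dcpp genes on chromosome 17, which encode secreted proteins known from salivary glands. Dcpp2 was at 12.86, 12.56, 11.67 and 11.79 in Xb130-/- glands against 4.39, 4.68, 4.72 and 4.74 in Xb130+/+ glands. The groups lay far apart, with a difference of 7.59 (SE 0.51, adjusted p = 1.11e-09 from limma), and the Xb130+/+ values were low on the scale, where signal over background is not known. Dcpp1 and Dcpp3 differed by 6.76 (SE 0.46) and 6.60 (SE 0.53), and Dcpp3 of LH7723 held the highest value on any of the 24 arrays (14.03). The copies are nearly identical, so which of them was read is uncertain. In each copy the 2 Xb130-/- mice with thymocyte signal, LH7725 and LH7727, did not exceed LH7721.

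Slc34a2 and Bcat1 followed the Dcpp genes in size. Slc34a2, a sodium-phosphate cotransporter of apical membranes, was at 10.88, 10.80, 10.48 and 10.38 in Xb130-/- glands against 6.04, 6.30, 5.72 and 6.18 in Xb130+/+ glands (difference 4.58, SE 0.27). Bcat1, which transaminates branched-chain amino acids in the cytosol, was at 10.63, 10.47, 10.25 and 10.12 in Xb130-/- glands against 6.09, 6.90, 6.73 and 6.63 in Xb130+/+ glands (3.78, SE 0.24). Both genes were thus separated by more than 3 log2 units between the closest mice of unlike genotype. Cyp27b1, the enzyme that activates vitamin D, was at 12.13, 12.03, 12.14 and 12.08 in Xb130-/- glands against 8.91, 8.69, 8.97 and 9.49 in Xb130+/+ glands (3.08, SE 0.24). Cyp24a1, which degrades active vitamin D and is a target of its receptor, gave a difference of −0.05 (SE 0.12, adjusted p = 0.819 from limma). Slc7a11, the cystine-glutamate antiporter, was at 7.13, 7.13, 8.01 and 7.03 in Xb130-/- mice against 4.42, 4.69, 4.04 and 4.23 in Xb130+/+ mice (2.98, SE 0.28). Here LH7725 stood above the other knockouts, and the genotypes were apart without it as well. Of the 19 measured genes of vitamin D and calcium handling 5 were higher and 2 lower, and of 35 genes of oxidative stress and glutathione 8 were higher and 3 lower (5 and 5 without LH7725 and LH7727).

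Further large increases were those of Cnmd (3.31, SE 0.24), a cartilage protein that restrains vessel growth, and of Pkp1 (3.22, SE 0.24), a plaque protein of desmosomes. Of 10 cartilage markers 3 were higher and none lower (median −0.09), Cnmd with Comp (0.51, SE 0.13) and Col9a3 (0.44, SE 0.10), while Acan and Col2a1 gave −0.09 and −0.28 (adjusted p = 0.629 and 0.239 from limma). The list mean was 6.34 to 6.71 in Xb130-/- mice and 6.16 to 6.33 in Xb130+/+ mice. This gap rests on Cnmd, and only 4 of the 10 markers had a positive difference. Car15, a membrane-anchored carbonic anhydrase, rose by 3.17 (SE 0.32). The forkhead factor Foxf2, known from mesenchyme, rose by 3.03 (SE 0.17), and Tmem100, a membrane protein of endothelium, by 2.94 (SE 0.19). Hs3st4, a 3-O-sulfotransferase of heparan sulfate, was at 8.97, 9.06, 8.56 and 7.93 in Xb130-/- mice against 5.87, 5.88, 5.37 and 5.85 in Xb130+/+ mice (2.89, SE 0.18). All these genes were completely separated by genotype.

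**Figure D3:**
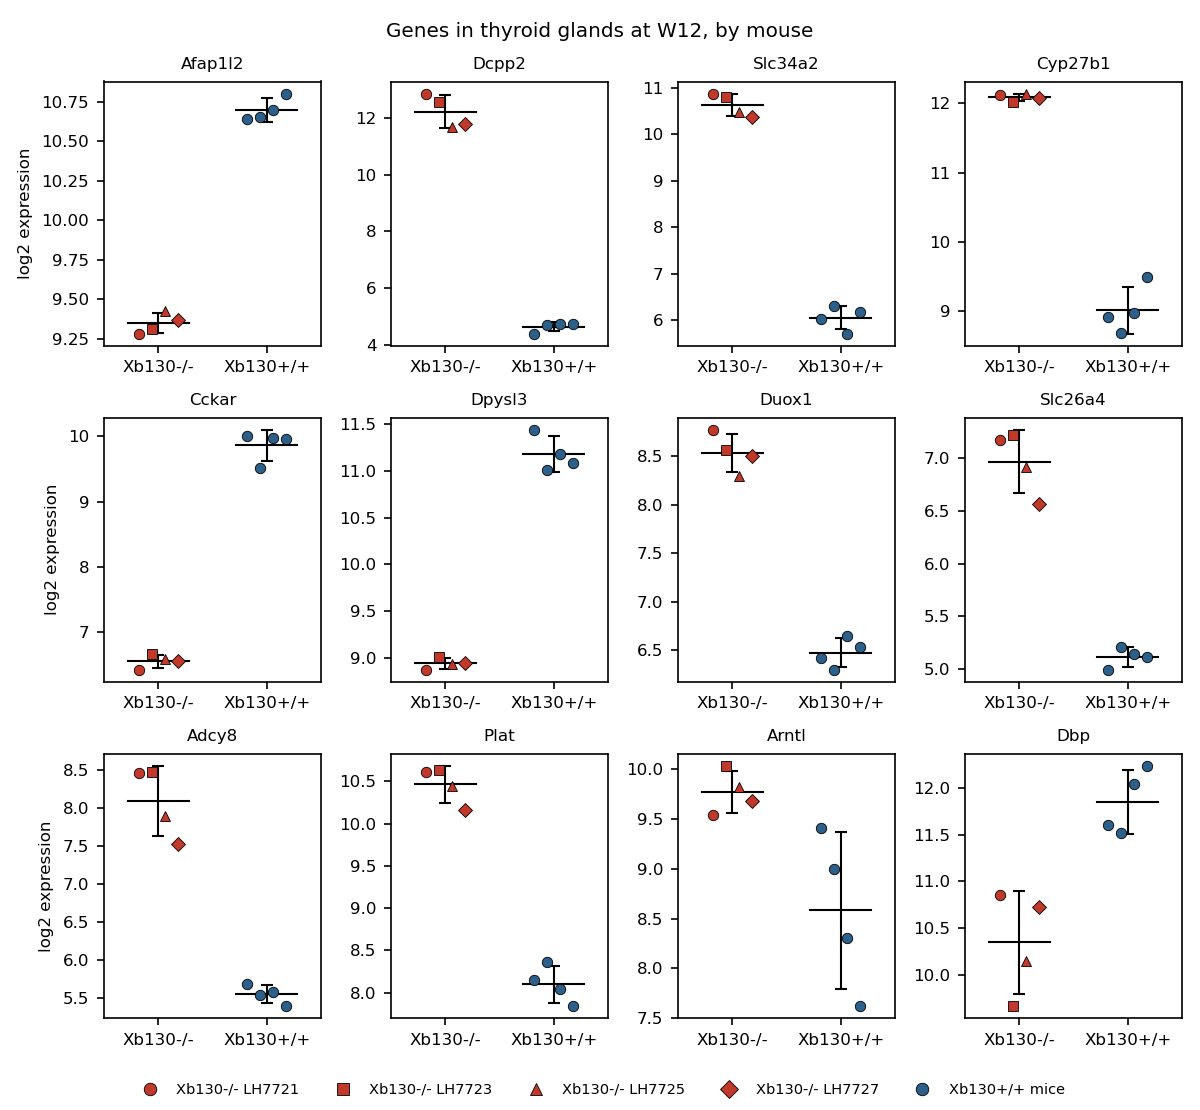
Log2 expression of 12 genes in each W12 mouse (points), Xb130-/- left of Xb130+/+, with the group mean ± SD (n = 4 each). Dcpp2 lies between 11.67 and 12.86 in Xb130-/- mice and between 4.39 and 4.74 in Xb130+/+ mice, while Arntl spreads from 7.62 to 9.41 among Xb130+/+ mice.

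The largest decrease was that of Cckar, the receptor for cholecystokinin, at 6.42, 6.65, 6.57 and 6.55 in Xb130-/- glands against 10.01, 9.51, 9.98 and 9.96 in Xb130+/+ glands (difference −3.32, SE 0.23, adjusted p = 1.56e-09 from limma). Dpysl3, a cytoskeletal protein known from growing axons, was at 8.87, 9.01, 8.93 and 8.95 in Xb130-/- glands against 11.44, 11.003, 11.18 and 11.08 in Xb130+/+ glands (−2.23, SE 0.18). Knockout mice were nearly uniform in both genes. Myo3b, an unconventional myosin with a kinase domain, fell by 2.0 (SE 0.16). Atp6v0a4, a subunit of the proton pump of acid-secreting cells, was at 7.0, 6.69, 7.12 and 6.93 in Xb130-/- mice against 8.85 to 8.89 in Xb130+/+ mice (−1.94, SE 0.20). Agr3, a protein disulfide isomerase of the ER, fell by 1.83 (SE 0.41), and Tmem213 fell by 1.64 (SE 0.18). Met, the receptor for hepatocyte growth factor and a tyrosine kinase, was at 8.64, 8.60, 8.76 and 8.70 in Xb130-/- mice against 10.18, 10.27, 10.16 and 10.11 in Xb130+/+ mice (−1.51, SE 0.10). Among 34 growth factors and their receptors 7 were higher and 6 lower (median 0.08).

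Kallikreins of the Klk1b family, serine proteases best known from the submandibular gland, were lower together. This list was chosen after its values were seen. Of 11 measured members 9 were lower and none higher (median −1.41), against 10.5% lower among all genes. Klk1b9 was at 7.33, 8.05, 7.54 and 7.93 in Xb130-/- mice against 9.31, 9.74, 10.29 and 8.89 in Xb130+/+ mice (−1.84, SE 0.38, adjusted p = 0.00136 from limma). Klk1b22 fell by 1.75 (SE 0.45) and Klk1b1 fell by 1.61 (SE 0.30). The mean of the family was 6.08, 6.59, 6.19 and 6.70 in Xb130-/- mice against 7.38, 7.68, 8.64 and 7.20 in Xb130+/+ mice, apart between genotypes but widely spread. The members are close copies on chromosome 7, so their signals may not be separate. At W4, where 4.35% of all genes were lower, 4 of the 11 were.

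Genes of thyroid hormone synthesis were mostly higher, with 13 of 24 measured members higher and 1 lower (median 0.22). Duox1, which makes the hydrogen peroxide for iodination, was at 8.77, 8.57, 8.29 and 8.50 in Xb130-/- glands against 6.42, 6.30, 6.65 and 6.54 in Xb130+/+ glands (2.06, SE 0.18), and its maturation factor Duoxa1 rose by 1.71 (SE 0.13). The iodide path was higher at both faces of the cell. Slc26a4, the apical anion exchanger pendrin, was at 7.17, 7.22, 6.91 and 6.56 in Xb130-/- mice against 4.99, 5.21, 5.14 and 5.11 in Xb130+/+ mice (1.85, SE 0.12). Slc5a5, the basal sodium-iodide symporter, was at 12.76, 12.68, 12.40 and 12.70 in Xb130-/- mice against 10.90, 11.72, 11.41 and 11.76 in Xb130+/+ mice (1.19, SE 0.21, adjusted p = 0.000294 from limma). Ano1, an anion channel of the apical membrane, rose by 1.27 (SE 0.08) and the TSH receptor Tshr by 0.68 (SE 0.09). Slc16a10, a transporter of aromatic amino acids and thyroid hormone, fell by 0.67 (SE 0.15). Of 12 thyroid transcription factors 2 were higher and 1 lower, and Pax8 gave −0.10 (SE 0.07, adjusted p = 0.327 from limma). Leaving out LH7725 and LH7727 left 12 synthesis genes higher and 1 lower.

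Among 37 genes of cAMP and TSH receptor signaling 12 were higher and 5 lower (median 0.09), and 8 and 5 without LH7725 and LH7727. Adcy8, a calcium-stimulated adenylyl cyclase, was at 8.47, 8.48, 7.90 and 7.53 in Xb130-/- glands against 5.68, 5.53, 5.58 and 5.39 in Xb130+/+ glands (2.55, SE 0.15, adjusted p = 2.51e-10 from limma). LH7725 and LH7727 were the lower knockouts here and still lay above every Xb130+/+ mouse. Pde4d, a phosphodiesterase that degrades cAMP, rose by 1.34 (SE 0.08). Immediate-early genes, which cells switch on within minutes of a stimulus, had 20 of 31 members higher and none lower (median 0.47), and 15 higher without LH7725 and LH7727. The orphan nuclear receptor Nr4a1 was at 9.84, 10.07, 9.99 and 9.99 in Xb130-/- glands against 9.07, 8.24, 8.55 and 8.37 in Xb130+/+ glands (1.41, SE 0.18, adjusted p = 9.64e-06 from limma). The stress-induced factor Atf3 rose by 1.39 (SE 0.22), the MAP kinase phosphatase Dusp1 by 1.38 (SE 0.13) and Nr4a3 by 1.36 (SE 0.28). At W4, where 5.08% of all genes were higher, 16 of the 31 were.

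The factor CREB binds cAMP response elements, whose core is TGACG. Of the 31 immediate-early genes 26 had a promoter in the RefSeq table (GRCm38.p6). Among these, 15 (57.7%) held this core on either strand within 250 bases upstream of the listed start, against 17.9% of all 27025 promoters. Of the 18 called members with a promoter 11 held it. These shares describe the chosen list, and the part of the core in its rise was not tested. The promoters of Nr4a1 (chr15:101266596-101266845, plus strand) and Nr4a3 (chr4:48045055-48045304, plus strand) are shown as the members that rose and hold 4 cores each. Capitals mark the core on either strand, and a match is a description and no measured binding site.
Nr4a1: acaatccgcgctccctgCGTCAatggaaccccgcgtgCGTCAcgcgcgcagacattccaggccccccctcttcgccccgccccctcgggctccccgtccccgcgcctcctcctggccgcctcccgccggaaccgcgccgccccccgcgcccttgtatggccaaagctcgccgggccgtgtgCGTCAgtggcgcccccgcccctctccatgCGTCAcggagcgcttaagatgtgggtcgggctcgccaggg
Nr4a3: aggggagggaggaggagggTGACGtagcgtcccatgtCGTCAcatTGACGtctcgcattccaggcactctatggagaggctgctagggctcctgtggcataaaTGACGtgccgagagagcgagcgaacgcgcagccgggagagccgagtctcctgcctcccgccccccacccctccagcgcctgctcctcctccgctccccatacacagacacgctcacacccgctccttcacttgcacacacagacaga

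Most genes of mitosis and fewer genes of DNA replication were higher. Of 67 genes of mitosis and chromosome segregation 60 were higher and none lower (median 1.41 against −0.05 for all genes), and of 56 genes of DNA replication 27 were higher and none lower (median 0.47). Ccna2, the cyclin of S phase and entry into mitosis, was at 9.40, 9.66, 11.19 and 9.93 in Xb130-/- glands against 7.24, 7.66, 7.54 and 6.96 in Xb130+/+ glands. LH7725 was far above the other knockouts, and the lowest knockout was still more than 1 unit above the highest Xb130+/+ mouse. The difference was 2.69 (SE 0.47, adjusted p = 0.000309 from limma). Top2a, the topoisomerase that untangles sister chromosomes, was at 8.42, 8.68, 10.34 and 9.02 in Xb130-/- glands against 6.22, 7.0, 6.50 and 6.09 in Xb130+/+ glands (2.66, SE 0.46). The mitotic kinase Pbk rose by 2.44 (SE 0.42) and cyclin B2 (Ccnb2) by 2.33 (SE 0.42). In DNA replication, Rrm2, the inducible subunit of ribonucleotide reductase, rose by 2.56 (SE 0.49), the repressor E2f8 by 2.02 (SE 0.43) and the polymerase subunit Pole by 1.75 (SE 0.38).

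The mean of the mitosis genes was 7.63, 7.80, 8.72 and 7.78 in Xb130-/- mice against 6.55, 6.73, 6.65 and 6.46 in Xb130+/+ mice. LH7725 was highest of all 8 mice for 65 of the 67 genes. LH7721 and LH7723, whose thymocyte means of 6.12 and 5.98 lay within or below the Xb130+/+ range, exceeded every Xb130+/+ mouse for 65 and 61 of the 67 genes. LH7727, with a thymocyte mean of 8.63, had a mitosis mean of 7.78 beside 7.80 in LH7723. Its DNA replication mean was above that of LH7723, at 8.40 against 8.34. The part of thymocytes in these values was not tested. Without LH7725 and LH7727, 32 mitosis genes were higher and none lower, against 6.75% higher among all genes, with Ccna2 at a difference of 2.18 (adjusted p = 0.01 from limma) and Top2a at 2.09. In DNA replication 5 genes were then higher, and 11 with only LH7725 left out. At W4, 1 mitosis gene was higher (median 0.62) and no replication gene. No gene of either list, however, changed from W4 in limma's test of the difference between the ages. Of 24 genes of the G1 phase 4 were higher and 2 lower, and 1 and 2 without these mice. Cdkn1a, the cyclin-dependent kinase inhibitor p21, rose by 1.0 (SE 0.13), while Cdk6 fell by 0.31 (SE 0.06).

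Promoters of late cell-cycle genes are known for a cell cycle homology region (CHR), searched here as TTTGAA and in a variant form as TTCGAA, together with CCAAT boxes. Of the 56 mitosis genes with a promoter in the RefSeq table, 19 (33.9%) held a CHR on either strand in the 250 upstream bases, against 17.4% of all promoters. CCAAT was held by 37 (66.1%), against 34.5%. Of the 51 called members with a promoter 19 held a CHR and 34 held CCAAT. These shares too describe the chosen list. Ccnb2 (chr9:70421555-70421804, minus strand) and Top2a (chr11:99024190-99024439, minus strand) are shown as examples of the members that hold both motifs. Cdk1 and Bub1b, among others, hold both as well. The motifs do not overlap in the promoters shown. The CHR of Ccnb2 lies 161 bases before the start, and the nearest of Top2a 17 bases. Capitals mark both motifs on either strand.
Ccnb2: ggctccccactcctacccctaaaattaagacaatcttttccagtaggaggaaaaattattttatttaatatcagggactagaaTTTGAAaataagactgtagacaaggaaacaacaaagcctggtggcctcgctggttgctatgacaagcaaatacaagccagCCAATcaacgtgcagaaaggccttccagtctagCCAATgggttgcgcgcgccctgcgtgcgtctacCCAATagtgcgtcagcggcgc
Top2a: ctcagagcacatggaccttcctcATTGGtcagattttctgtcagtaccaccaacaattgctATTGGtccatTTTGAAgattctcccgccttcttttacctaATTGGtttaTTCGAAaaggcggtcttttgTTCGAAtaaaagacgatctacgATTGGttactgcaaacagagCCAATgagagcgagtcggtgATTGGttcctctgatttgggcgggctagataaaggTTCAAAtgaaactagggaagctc

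Genes of the circadian clock differed between the genotypes at W12. The 21 genes of this list were put together after values had been seen, and of 20 measured 4 were higher and 11 lower (median −0.43), against 9.42% and 10.5% of all genes. The core clock pairs the activators CLOCK (or NPAS2) and BMAL1, encoded by Arntl, which drive their own repressors of the Per and Cry families and output factors such as DBP, TEF and HLF. Arntl was higher, at 9.54, 10.04, 9.82 and 9.69 in Xb130-/- glands against 9.41, 9.0, 8.31 and 7.62 in Xb130+/+ glands (1.19, SE 0.28, adjusted p = 0.004 from limma, and 0.0535 in a fit of the W12 arrays alone). Dbp was lower, at 10.85, 9.66, 10.14 and 10.73 in Xb130-/- glands against 11.60, 11.52, 12.05 and 12.24 in Xb130+/+ glands (−1.51, SE 0.24, adjusted p = 0.000122 from limma). Hlf was at 8.45, 7.61, 8.06 and 8.03 in Xb130-/- glands against 9.49, 9.19, 9.85 and 10.34 in Xb130+/+ glands (−1.68, SE 0.22). The genotypes did not overlap in any of these genes, although Arntl spread widely among Xb130+/+ mice.

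The repressor Bhlhe41 was at 8.75, 8.55, 8.75 and 8.73 in Xb130-/- glands against 9.89, 9.85, 10.01 and 10.52 in Xb130+/+ glands (−1.37, SE 0.16). Ciart, another repressor of the loop, fell by 1.30 (SE 0.25), Tef fell by 1.08 (SE 0.17) and Per3 fell by 1.08 (SE 0.19). Nfil3, which opposes DBP at shared sites, rose by 1.06 (SE 0.12), Npas2 by 0.65 (SE 0.16) and Csnk1e, a kinase that marks PER proteins for degradation, by 0.19 (SE 0.05). Other members were not called, among them Clock (−0.11, adjusted p = 0.317), Per1 (−0.62, 0.0524), Per2 (−0.51, 0.192) and Bhlhe40 (−0.15, 0.349), all from limma. Some mice were extreme in most of these genes. LH7726 was the highest Xb130+/+ mouse for 9 of the 11 lower genes and the lowest for 3 of the 4 higher genes, and LH7723 was the lowest Xb130-/- mouse for 8 of the 11 and the highest for 3 of the 4. The sources used here do not say whether the glands of both genotypes were taken at the same hour, and the part of that hour in these values was not tested. Without LH7725 and LH7727, 3 clock genes were higher and 8 lower, and at W2 as at W4 there were 2 higher and 1 lower.

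**Figure D4:**
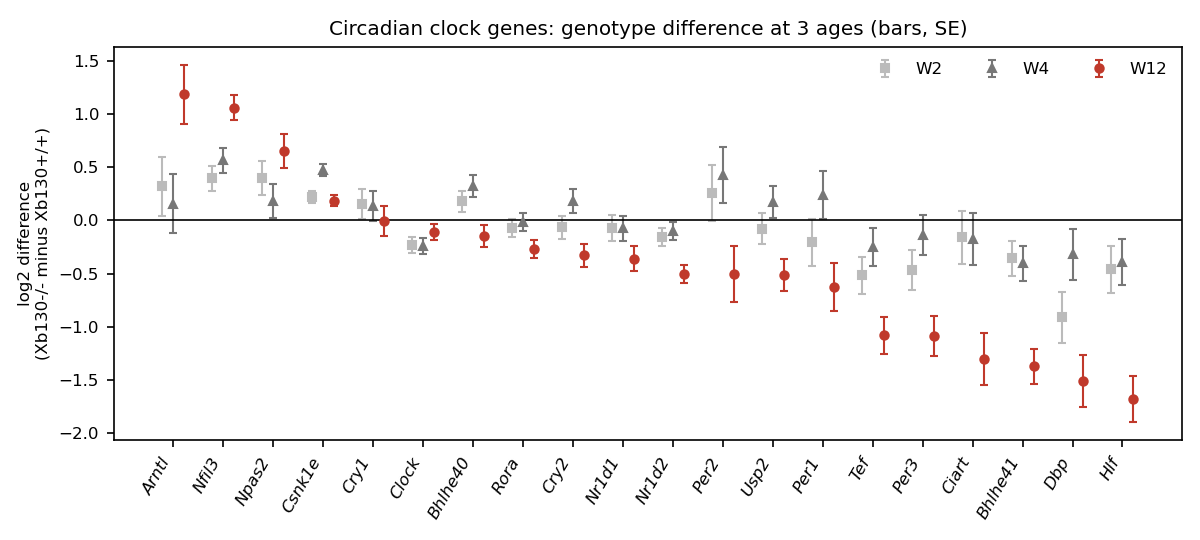
Difference between Xb130-/- and Xb130+/+ glands (log2, ± SE, n = 4 each) of the 20 measured clock genes at W2, W4 and W12. At W12 the differences run from −1.68 (Hlf) to 1.19 (Arntl), while the median at W4 is 0.06.

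BMAL1 and its partners bind the E-box CACGTG. Of the 18 clock genes that RefSeq gives a promoter, 5 (27.8%) held it in the 250 upstream bases, against 6.05% of all promoters, and 3 of the 11 lower genes did, Ciart, Bhlhe41 and Tef. Their promoters are shown as the E-box holders that fell, from Ciart (chr3:95882229-95882478, minus strand), Bhlhe41 (chr6:145865421-145865670, minus strand) and Tef (chr15:81802423-81802672, plus strand), with the E-box, which reads the same on both strands, in capitals.
Ciart: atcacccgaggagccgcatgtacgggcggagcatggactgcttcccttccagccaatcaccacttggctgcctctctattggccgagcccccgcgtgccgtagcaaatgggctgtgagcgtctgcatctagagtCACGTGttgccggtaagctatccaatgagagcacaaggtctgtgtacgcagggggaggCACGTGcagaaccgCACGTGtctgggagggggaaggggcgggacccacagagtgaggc
Bhlhe41: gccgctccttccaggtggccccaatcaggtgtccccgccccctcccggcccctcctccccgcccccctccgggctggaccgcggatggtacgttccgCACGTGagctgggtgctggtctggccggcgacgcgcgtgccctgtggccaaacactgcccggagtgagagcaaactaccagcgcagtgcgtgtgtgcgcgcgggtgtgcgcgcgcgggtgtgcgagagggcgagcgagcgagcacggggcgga
Tef: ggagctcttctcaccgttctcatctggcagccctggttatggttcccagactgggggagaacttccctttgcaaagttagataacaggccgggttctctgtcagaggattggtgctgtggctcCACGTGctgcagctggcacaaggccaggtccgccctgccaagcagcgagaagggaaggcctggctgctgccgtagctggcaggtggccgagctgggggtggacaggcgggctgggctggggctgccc

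Part of the genes of the extracellular matrix and its receptors were higher in Xb130-/- glands and few were lower. Of 40 laminins, elastic fiber and matricellular proteins 19 were higher and 2 lower (median 0.33), of 28 collagens 9 and none (0.23), and of 23 genes of collagen processing 11 and 1 (0.19). Tgfbi, a secreted adhesion protein induced by TGF-beta, was at 12.80, 12.73, 12.50 and 12.51 in Xb130-/- glands against 10.71, 10.70, 10.56 and 10.81 in Xb130+/+ glands (1.94, SE 0.10, adjusted p = 1.34e-10 from limma). The genotypes lay far apart beside the small spread of each. The matricellular protein Ccn1 rose by 1.40 (SE 0.16), the laminin chain Lama3 by 1.10 (SE 0.14), and the collagen-crosslinking oxidases Lox and Loxl4 by 1.24 (SE 0.20) and 1.09 (SE 0.13). The basement membrane chains Col4a1 and Col4a2 rose by 0.77 (SE 0.17) and 0.69 (SE 0.14), whereas Emilin2, an elastic fiber protein, fell by 0.81 (SE 0.10). Counts fell to 13 matricellular and 6 collagen genes higher without LH7725 and LH7727.

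Plat, the tissue plasminogen activator, was at 10.61, 10.64, 10.45 and 10.16 in Xb130-/- glands against 8.15, 8.36, 8.05 and 7.84 in Xb130+/+ glands (2.36, SE 0.14, adjusted p = 2.22e-10 from limma). The receptor of urokinase, Plaur, rose by 1.21 (SE 0.15), and the metalloprotease inhibitor Timp1 by 1.39 (SE 0.18). In all, 9 of 29 matrix proteases and inhibitors were higher and 2 lower, and 6 and 2 without LH7725 and LH7727. Of 33 integrin genes and partners 19 were higher and none lower (median 0.30), and 12 without LH7725 and LH7727. The collagen receptor subunit Itga2 rose by 1.41 (SE 0.24), the integrin activator Fermt1 by 0.97 (SE 0.18) and the epithelial subunit Itgb6, whose dimer releases TGF-beta from its latent form, by 0.89 (SE 0.20). Of 30 genes of TGF-beta signaling 13 were higher and 1 lower (median 0.25), with Id1, a target of BMP signals, at 0.79 (SE 0.17), the co-receptor endoglin (Eng) at 0.75 (SE 0.10) and the co-receptor Tgfbr3 at −0.43 (SE 0.08).

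Genes of O-linked glycosylation were also mostly higher or not called. Of 32 genes of O-linked glycosylation and mucins 15 were higher and 2 lower (median 0.25), and the 15 higher genes stood at the same number without LH7725 and LH7727. St6galnac1, which caps O-glycans with sialic acid, was at 7.79, 8.18, 7.79 and 7.28 in Xb130-/- glands against 5.49, 6.06, 4.41 and 5.05 in Xb130+/+ glands (2.51, SE 0.32, adjusted p = 9.67e-06 from limma). The membrane mucin Muc4 was at 8.24, 8.33, 7.89 and 7.80 in Xb130-/- glands against 5.86, 5.97, 5.99 and 5.92 in Xb130+/+ glands (2.13, SE 0.18). Both were apart in all mice. Gcnt3, which branches mucin O-glycans, rose by 1.73 (SE 0.15) and the membrane mucin Muc20 by 1.60 (SE 0.22). In 40 genes of heparan sulfate and proteoglycans 13 were higher and 2 lower (median 0.10), among them the 3-O-sulfotransferase Hs3st3a1 (1.95, SE 0.13) and the glypican Gpc6 (1.20, SE 0.15).

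Markers of blood vessels were mostly higher. Of 20 endothelial markers 13 were higher and none lower (median 0.33), and 10 without LH7725 and LH7727. In a whole gland fewer cells of a type and less RNA per cell cannot be told apart, nor can more. The mean of these markers was 10.68, 10.65, 10.61 and 10.58 in Xb130-/- mice against 10.26, 10.36, 10.18 and 10.36 in Xb130+/+ mice, without overlap. Kdr, the main receptor for VEGF, rose by 0.45 (SE 0.11), the junction proteins Cdh5 and Pecam1 by 0.35 (SE 0.08) and 0.34 (SE 0.07), and the arterial factor Sox17 by 1.13 (SE 0.10). Of 12 pericyte and smooth muscle markers 7 were higher and none lower, with Notch3 at 0.78 (SE 0.15) and Pdgfrb at 0.65 (SE 0.11). Lymphatic endothelium went the other way in part, with 3 of 6 markers lower and 1 higher, and its master factor Prox1 fell by 0.80 (SE 0.15).

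Angiogenic factors and receptors had 17 of 36 members higher and 1 lower (median 0.22), and 16 higher without LH7725 and LH7727. At W4, 5 were higher and 5 lower, and 1 of the 36 changed from W4 in limma's test of the difference between the ages. Angpt2, which loosens vessels for sprouting, was at 9.22, 9.07, 8.82 and 8.55 in Xb130-/- glands against 7.77, 7.84, 7.58 and 7.61 in Xb130+/+ glands (1.21, SE 0.13, adjusted p = 1.15e-06 from limma). Apln, a peptide of sprouting endothelial tips, was at 9.29, 9.05, 8.79 and 9.29 in Xb130-/- glands against 7.74, 8.17, 7.70 and 7.62 in Xb130+/+ glands (1.30, SE 0.30). Every knockout mouse was thus above every Xb130+/+ mouse in both factors. The scavenging chemokine receptor Ackr3 rose by 1.20 (SE 0.12), and Vegfb fell by 0.44 (SE 0.07). The erythrocyte genes, also higher in every knockout, include Hbb-bs (1.32, SE 0.33), a hemoglobin gene whose near copies may share its signal.

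Of 19 macrophage markers 9 were higher and 1 lower (median 0.40), and their list means overlapped, at 8.32 to 8.60 in Xb130-/- mice and 8.11 to 8.33 in Xb130+/+ mice. Trem2, a lipid-sensing receptor of macrophages, was at 9.25, 9.14, 9.31 and 9.0 in Xb130-/- glands against 8.13, 8.29, 8.12 and 8.06 in Xb130+/+ glands (1.02, SE 0.13, adjusted p = 6.03e-06 from limma). The lysosomal protein Cd68 rose by 0.81 (SE 0.11), Adgre1, a surface receptor of mature macrophages, by 0.71 (SE 0.11) and the growth factor receptor Csf1r by 0.46 (SE 0.08). The engulfment receptor Mertk fell by 0.51 (SE 0.09), and the mannose receptor Mrc1 gave 0.10 (SE 0.10, adjusted p = 0.558 from limma). Of 9 mast cell markers 5 were higher and 1 lower, with the protease Mcpt4 at 6.09, 7.07, 7.04 and 6.32 in Xb130-/- mice against 4.85, 4.68, 5.08 and 4.51 in Xb130+/+ mice (1.85, SE 0.30). The carboxypeptidase Cpa3 rose by 1.36 (SE 0.29), while the stem cell factor receptor Kit fell by 0.68 (SE 0.09). Of 9 markers of natural killer cells none was called.

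Of 42 chemokines and receptors 9 were higher and 5 lower, against 9.42% and 10.5% of all genes, so the lower share was near that of all genes. Cxcl17, a chemokine of mucosal surfaces, was at 8.60, 7.87, 8.34 and 8.10 in Xb130-/- glands against 6.34, 6.22, 6.14 and 6.51 in Xb130+/+ glands (1.93, SE 0.20, adjusted p = 5.12e-07 from limma). Cxcl13, which draws B cells, was at 11.80, 11.99, 11.50 and 12.09 in Xb130-/- glands against 13.09, 13.06, 12.94 and 13.05 in Xb130+/+ glands (−1.19, SE 0.16). Neither chemokine overlapped between the genotypes. The T cell chemokine Ccl5 rose by 1.18 (SE 0.24), and the eosinophil chemokine Ccl11 fell by 1.33 (SE 0.16). In the IL-1, TNF and NF-kappaB group 10 of 39 were higher and 3 lower. There Ptgs2, the inducible cyclooxygenase, was at 7.70, 8.18, 8.46 and 8.19 in Xb130-/- glands against 5.77, 5.80, 5.89 and 5.71 in Xb130+/+ glands (2.34, SE 0.21), and Il1a rose by 1.49 (SE 0.16). Of 20 complement and Fc receptor genes 10 were higher and 1 lower, and of 17 genes of MHC class II presentation 6 and none. Cd4, a receptor of helper T cells and thymocytes, was at 7.86, 8.05, 10.82 and 10.12 in Xb130-/- mice against 6.75, 7.09, 6.87 and 6.56 in Xb130+/+ mice (2.40, SE 0.54), highest in LH7725 and LH7727 but without overlap. Its difference without those mice was 1.14 (SE 0.48) and was not called (adjusted p = 0.13 from limma). Of 19 immune checkpoint genes 7 were higher, and 2 without LH7725 and LH7727, and their list means were 7.25, 7.12, 7.49 and 7.28 in Xb130-/- mice against 6.98 to 7.13 in Xb130+/+ mice. Il10ra, the IL-10 receptor in this list, lay higher in every knockout (1.13, SE 0.12). Counts without LH7725 and LH7727 moved in other immune lists as well, to 6 complement and Fc receptor genes, 4 of MHC class II presentation and 6 chemokine genes higher and 2 lower.

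Of 11 C cell markers 5 were lower and 1 higher (median −0.16), and the lower ones include granule proteins of regulated secretion. The calcitonin gene Calca was not among the measured members, and the neuropeptide gene Calcb gave 0.09 (SE 0.12, adjusted p = 0.655 from limma). Scg3, a sorting protein of secretory granules, was at 9.0, 9.06, 9.14 and 9.07 in Xb130-/- glands against 10.61, 10.53, 10.16 and 10.54 in Xb130+/+ glands (−1.39, SE 0.09, adjusted p = 1.43e-09 from limma). The prohormone convertase Pcsk1 was at 9.40, 9.24, 9.16 and 9.36 in Xb130-/- glands against 10.84, 10.62, 10.37 and 10.79 in Xb130+/+ glands (−1.36, SE 0.10). Chgb fell by 1.25 (SE 0.14) and Scg2 fell by 0.77 (SE 0.09), whereas Chga gave −0.16 (SE 0.07, adjusted p = 0.132 from limma) and passed after the arrays were shifted to the same median (0.0333) and without LH7726, in no other alternative run. Scg5, a chaperone of another convertase, rose by 0.85 (SE 0.08). Of 4 measured parathyroid markers, Chga among them, 2 were lower and none had a positive difference (median −0.40). Casr fell by 0.74 (SE 0.23, adjusted p = 0.0261 from limma), with overlap, and Gata3 gave −0.64 (SE 0.30, adjusted p = 0.138 from limma). The smallest change was that of parathyroid hormone (Pth), at 13.24 to 13.35 in Xb130-/- mice and 13.37 to 13.51 in Xb130+/+ mice (−0.16, SE 0.05, adjusted p = 0.0348 from limma). Its call was lost in the W12 arrays alone, with array weights, without LH7725 and LH7727, and without any single one of LH7721, LH7725, LH7720, LH7722 or LH7724. Of 7 Schwann cell and nerve markers 4 were lower, with the cadherin Cdh19 at −1.26 (SE 0.17) and S100b at −0.89 (SE 0.12). Among fibroblast markers Pdgfra fell by 0.69 (SE 0.13), with 3 of 13 markers higher and 2 lower, and none and 2 without LH7725 and LH7727.

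Of 40 genes of the unfolded protein response and ER folding 16 were lower and 1 higher (median −0.25). Derl3, which takes misfolded proteins out of the ER, was at 10.14, 9.80, 10.42 and 10.29 in Xb130-/- glands against 11.34, 11.62, 11.32 and 11.72 in Xb130+/+ glands (−1.34, SE 0.21, adjusted p = 9.83e-05 from limma). All Xb130-/- mice lay below all Xb130+/+ mice. The mean of the list was 11.24, 11.14, 11.12 and 11.13 in Xb130-/- mice against 11.29, 11.55, 11.36 and 11.41 in Xb130+/+ mice. The count rested on few mice, with 8 genes lower without LH7725, 10 without LH7727, 9 without LH7722, and 5 without LH7725 and LH7727. Of 22 tRNA synthetases 4 were lower and none higher, and 1 was lower without those mice.

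Energy metabolism was lower in some of its branches. Of 29 genes of the TCA cycle and pyruvate 11 were lower and 2 higher (median −0.22), and of 31 genes of fatty acid oxidation 9 and 3 (−0.23). Of 58 genes of oxidative phosphorylation 3 were lower and none higher, and of 53 genes of mitochondrial translation none was called. Both shares were under the 10.5% lower over all genes. The oxidative phosphorylation mean was nevertheless lower in every knockout, at 10.34 to 10.42 against 10.45 to 10.49 in Xb130+/+ mice. For 14 of its 58 genes all Xb130-/- values lay below all Xb130+/+ values, against 12.1% of all genes. Me3, the mitochondrial malic enzyme that uses NADP, fell by 0.71 (SE 0.18) and the pyruvate dehydrogenase kinase Pdk1 fell by 0.63 (SE 0.10), while fumarase (Fh1) rose by 0.49 (SE 0.08). Ppara, the nuclear receptor that drives fatty acid oxidation, was at 7.76, 7.67, 8.55 and 7.51 in Xb130-/- glands against 9.08, 8.59, 8.77 and 8.78 in Xb130+/+ glands (−0.93, SE 0.24, adjusted p = 0.00797 from limma). LH7725 came close to the Xb130+/+ mice, and the coactivator Ppargc1b fell by 0.49 (SE 0.11).

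Adipocyte markers moved with these genes. The mean of the fatty acid oxidation list was 10.22, 10.21, 10.43 and 10.18 in Xb130-/- mice against 10.44 to 10.49 in Xb130+/+ mice, nearest to Xb130+/+ in LH7725, the knockout with a white adipocyte mean of 10.60. White adipocyte markers had 4 of 9 members lower and none higher (median −0.68), and brown adipocyte markers 3 of 7 lower. Lep, the hormone of fat cells, was at 6.33, 6.78, 7.75 and 6.30 in Xb130-/- mice against 8.22, 7.01, 8.94 and 8.70 in Xb130+/+ mice (−1.43, SE 0.38), with overlap. Ucp1, the uncoupling protein of brown fat, was at 8.43, 8.74, 10.93 and 6.68 in Xb130-/- mice against 11.28, 9.71, 11.08 and 11.12 in Xb130+/+ mice (−2.10, SE 0.65, adjusted p = 0.0247 from limma), also with overlap. Neither was called in a fit of the W12 arrays alone, and Ucp1 lost its call without any single one of LH7721, LH7727, LH7720, LH7724 or LH7726. The part of adipocytes in the lower metabolic genes was not tested. There were 7 TCA cycle and 8 fatty acid oxidation genes lower without LH7725 and LH7727. All 9 white adipocyte markers were then lower too (median −1.04), so these counts do not set the adipocyte difference aside.

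Tests of whether the genotype difference at W12 departed from that at the earlier ages found far fewer genes. Each age has its own Xb130-/- and Xb130+/+ mice, and both tests share the W12 mice. Against W4, the difference at W12 was larger in the positive direction for 136 genes (0.587%) and in the negative direction for 96 (0.414%). Against W2 the counts were 301 (1.3%) and 225 (0.97%). Within an age, 4.17% of all genes were higher and 3.28% lower in Xb130-/- glands at W2, and 5.08% higher and 4.35% lower at W4. The counts against W4 varied when single mice were left out, falling to 69 and 33 without LH7723, and the further mice that moved them by over 1.5 times were LH7721 (81 and 52), LH7724 (73 and 48), LH7726 (90 in the positive direction) and LH7720 and LH7722 (47 and 63 in the negative direction).

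Slc34a2 differed by 1.80 at W2, 2.21 at W4 and 4.58 at W12. The last of these exceeded the difference at W4 by 2.37 (SE 0.39, adjusted p = 0.00611 from limma). Some genes were called at W12 alone. Ly6i, a surface protein of the Ly6 family, was at 7.33, 7.35, 7.61 and 6.96 in Xb130-/- glands against 5.28, 4.90, 4.71 and 4.83 in Xb130+/+ glands (2.38, SE 0.22), after −0.62 (SE 0.22) at W4, a change between ages of 3.0 (adjusted p = 8.42e-05 from limma). Coch, an extracellular protein known from the inner ear, was at 8.14, 7.78, 7.84 and 7.25 in Xb130-/- glands against 5.53, 5.64, 5.88 and 5.88 in Xb130+/+ glands (2.02, SE 0.15), after 0.12 (SE 0.15) at W4. Neither gene had passed the test at W4 or W2. Ptgdr, a receptor for prostaglandin D2, gave 2.33 (SE 0.22) at W12 and 0.49 (SE 0.22) at W4. Ptgds, a synthase of the same prostaglandin, went the other way, at 8.61, 8.83, 8.68 and 8.73 in Xb130-/- glands against 9.81, 9.55, 9.92 and 9.62 in Xb130+/+ glands (−1.01, SE 0.15), after 0.26 (SE 0.15) at W4. The W12 differences of Slc7a11 (2.98), Them5, a thioesterase of mitochondria (2.62, SE 0.19), Hs3st4 (2.89) and Mansc4 (2.02, SE 0.19) exceeded those at W4 by 2.14, 2.02, 1.96 and 1.90.

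Among the genes that fell further, Cnpy1 was at 6.95, 7.01, 7.21 and 7.22 in Xb130-/- glands against 9.15, 8.79, 8.36 and 8.81 in Xb130+/+ glands (−1.68, SE 0.14), after 0.25 (SE 0.14) at W2 and −0.53 (SE 0.14) at W4. Granule genes of the C cell list followed a similar course. Scg3 gave −0.15 (SE 0.09) at W2, −0.40 (SE 0.09) at W4 and −1.39 at W12. Pcsk1 gave 0.13 at W2, −0.33 at W4 and −1.36 at W12. Both changes from W4 passed the test (−1.0 and −1.03, adjusted p = 0.00087 for each from limma). Glb1l2, related to lysosomal beta-galactosidase, gave −1.24 (SE 0.21) at W12 and −0.02 at W4. In the clock group Hlf and Bhlhe41 changed from W4 (−1.29 and −0.97, adjusted p = 0.0476 and 0.0471 from limma), while for Dbp (−1.19, 0.107) and Arntl (1.03, 0.218) the change was not called. In the vessel group Angpt2 changed (1.17, SE 0.19, adjusted p = 0.00533), and Apln (1.39, SE 0.43) did not pass (0.129, both from limma). For cell division the change from W4 of Ccna2, 2.06 (SE 0.67), was not called either (adjusted p = 0.144 from limma). Cyp27b1, in contrast, gave 2.98 at W2, 3.16 at W4 and 3.08 at W12.

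**Figure D5:**
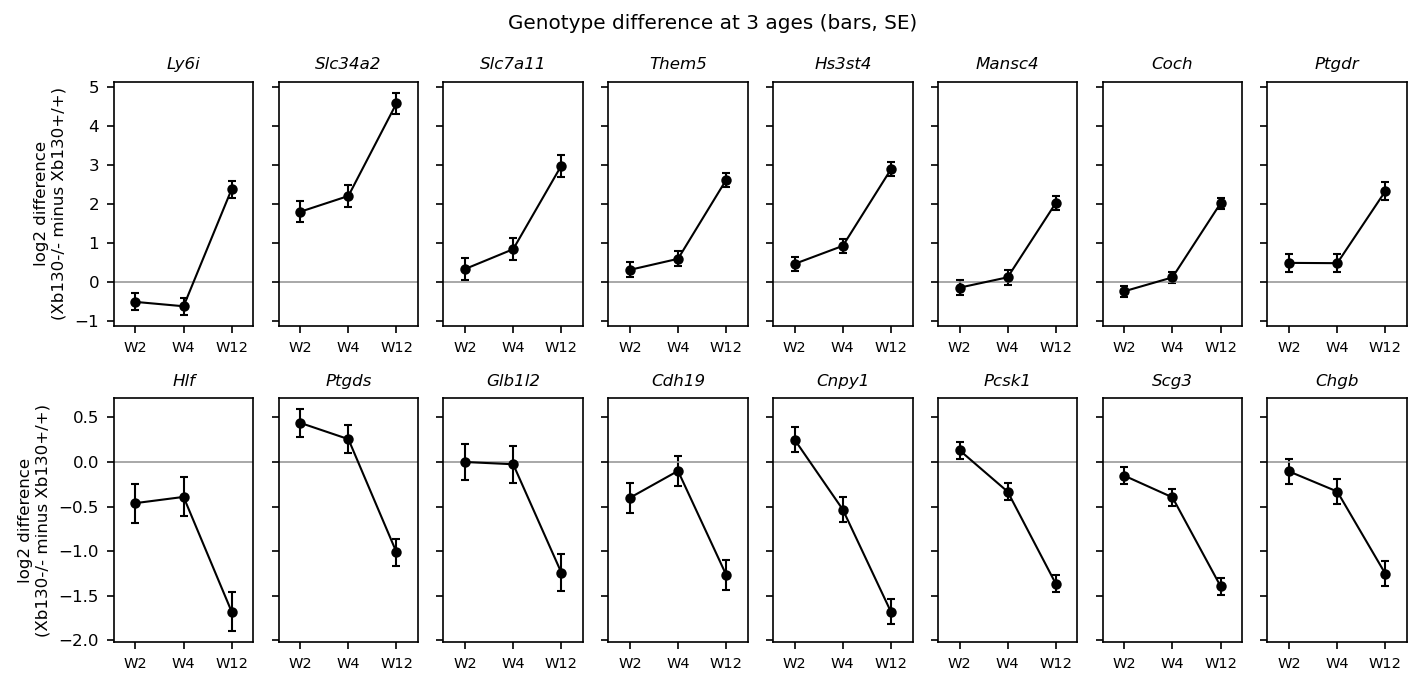
Difference between Xb130-/- and Xb130+/+ glands (log2, ± SE, n = 4 each) at W2, W4 and W12. Shown are genes whose W12 difference departed from that at W4, 8 in each direction. The upper 8 are the largest such changes. In the lower 8, Pcsk1, Scg3 and Chgb of the C cell list were drawn in place of Mir29a, Rgs7 and A330076H08Rik, which changed more. Ly6i gives 2.38 at W12 and −0.62 at W4, and Scg3 −1.39 at W12 and −0.40 at W4.

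The remaining lists had smaller shares or moved both ways. Of 43 genes of epithelial polarity and junctions 7 were higher and 4 lower, of 33 genes of lipid and cholesterol synthesis 3 and 7, of 32 interferon-stimulated genes 6 and 2, and of 32 genes of amino acid metabolism and transport 6 and 7. Of 20 p53 targets 5 were higher and 1 lower, with list means of 8.97 to 9.11 in Xb130-/- mice and 8.75 to 8.81 in Xb130+/+ mice, and of 15 genes of thyroid hormone response 1 was higher and 3 lower. Of 30 genes of the XB130 family and actin regulators 9 were higher and 2 lower, Afap1l2 being 1 of the lower ones, and 15 had all Xb130-/- values above all Xb130+/+ values. These shares of higher genes (9 of 30 and 5 of 20) exceeded the 9.42% of all genes. Neutrophil markers had 1 of 11 higher and 1 lower, dendritic cell markers 1 of 10 higher, and B cell and plasma cell markers 2 of 11 higher and 2 lower. With LH7725 and LH7727 left out, the counts were 4 and 4 for polarity and junctions, 2 and 2 for interferon-stimulated genes, 3 and 1 for p53 targets, 1 and 1 for thyroid hormone response and 0 for dendritic cells. Of 15 skeletal muscle markers 2 were higher (median 1.67), and Ckm, the muscle creatine kinase, gave 1.57 (SE 0.74, adjusted p = 0.145 from limma). None was called without LH7725 and LH7727, but the median was still 1.41. LH7723, with the highest muscle mean (10.91), stays in that fit, so these counts do not set the muscle difference aside.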

How the data were processed

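RNA of 24 whole thyroid glands was measured on Affymetrix Mouse Gene ST 2.0 arrays, and the deposited values are log2 expression values that the authors made with the R package oligo (no version given in the sources used here). Their robust multiarray average subtracts background, brings the quantiles of the 24 arrays to 1 distribution and summarizes each probe set by median polish. Probe intensities were not used here, so signal over background is not known, and the number of arrays limits the precision. Groups were taken from the sample labels. Of 25206 probe sets, 23185 carry 1 gene symbol and were tested, and 2021 without one were left out except in one alternative.

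The tests used lmFit and eBayes of limma 3.58.1 (R 4.3.3) on the 24 arrays, with a mean for each of the 6 combinations of age and genotype. Residual degrees of freedom were 18 and the prior added 2.85. P-values were adjusted by the Benjamini-Hochberg method over the 23185 genes, with 0.05 as threshold. The same fit gave the differences between ages. A single exact permutation test of 4 against 4 mice cannot give a two-sided p under 0.0286. Gene lists are described by counts and medians, with no set test. Named genes are Afap1l2, the 15 largest increases and 15 largest decreases with complete separation, up to 4 called members of a list in its main direction and 2 in the other, the first 4 markers of each marker list, and the 8 largest changes from W4 in each direction, of which a part is described. Cyp24a1 and the clock genes outside the rule (Tef, Per3, Npas2, Csnk1e, Clock, Per1, Per2, Bhlhe40) were added after their values were seen. Acan, Col2a1, Il10ra, Rag1, Dntt and Ckm fall under the rule and were picked from it after their values were seen. The lists and the comparison were chosen with earlier results of these data known, and the clock and kallikrein lists after these values were seen. Alternatives were the W12 arrays alone, a trended and robust variance, array weights, leaving out genes under the 30th percentile of the mean, all probe sets, arrays shifted to the same median, quantile normalization within each age, a change of at least 1.5-fold, leaving out LH7725 and LH7727, and leaving out each W12 mouse. The programs were tested on simulated data. Promoter letters were read from RefSeq (GRCm38.p6), 1 start per gene. Figures were drawn with matplotlib 3.10.9.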

Additional observations from a re-analysis of the deposited data

Results flagged for a closer look

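Some W12 mice stood far from the other 3 of their genotype, by the ratio of the gap to the nearest mouse over the range of the group. Chance gives this for about 1 in 20 groups. Many genes and lists were screened in both genotypes, so such values are also found where no mouse is unusual. LH7725 stood apart among Xb130-/- mice with Pax8 at 12.68 (others 12.79 to 12.81), Slc7a11 at 8.01 (7.03 to 7.13), Pkp1 at 9.94 (9.84 to 9.85), Ccl5 at 9.41 (8.64 to 8.77) and Ccl11 at 9.21 (8.62 to 8.71). The same mouse had a mitosis mean of 8.72 (others 7.63 to 7.80) and an integrin mean of 9.35 (9.16 to 9.18). LH7723 had Bhlhe41 at 8.55 (8.73 to 8.75) and Chgb at 8.12 (8.28 to 8.30), LH7721 had Myo3b at 7.60 (7.80 to 7.83), and LH7727 had S100b at 8.42 (8.55 to 8.57) and a C cell mean of 9.07 (8.97 to 8.98). Among Xb130+/+ mice, LH7722 had Cckar at 9.51 (9.96 to 10.01), Col4a2 at 9.43 (9.09 to 9.13), Ucp1 at 9.71 (11.08 to 11.28) and a macrophage mean of 8.33 (8.11 to 8.15). LH7720 had Dcpp2 at 4.39 (4.68 to 4.74), LH7724 had Hs3st4 at 5.37 (5.85 to 5.88) and LH7726 had Acan at 5.81 (5.66 to 5.67).

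For a number of the genes described, the genotype difference at W12 departed from that at an earlier age in limma's test of the difference itself. Against W4, the W12 difference (log2, W12 minus W4) was higher for Ly6i (3.0), Slc34a2 (2.37), Slc7a11 (2.14), Them5 (2.02), Hs3st4 (1.96), Mansc4 (1.90), Coch (1.90), Ptgdr (1.84), Plat (1.38), Gcnt3 (1.24), Tmem100 (1.18), Angpt2 (1.17), Adcy8 (1.01), Tgfbi (0.86) and Slc26a4 (0.84). It was lower than at W4 for Hlf (−1.29), Ptgds (−1.27), Glb1l2 (−1.21), Cdh19 (−1.16), Cnpy1 (−1.15), Pcsk1 (−1.03), Scg3 (−1.0), Bhlhe41 (−0.97), Chgb (−0.92) and Scg2 (−0.59). Against W2, it was higher (W12 minus W2) for Dcpp3 (4.90), Dcpp2 (4.22), Dcpp1 (4.21), Ly6i (2.89), Slc34a2 (2.78), Slc7a11 (2.64), Hs3st4 (2.42), Them5 (2.30), Coch (2.25), Pkp1 (2.17), Mansc4 (2.16), Bcat1 (1.85), Plat (1.84), Ptgdr (1.84), Duoxa1 (1.67), Ptgs2 (1.60), Duox1 (1.59), Angpt2 (1.51), Tmem100 (1.43), Gcnt3 (1.33), Cxcl17 (1.21), Lox (1.21), Nr4a1 (1.20), Il10ra (0.99), Cdkn1a (0.99), Tgfbi (0.95), Ccn1 (0.89), Dusp1 (0.84), Trem2 (0.81), Sox17 (0.77), Nfil3 (0.66), Cd68 (0.63), Ano1 (0.47) and Pecam1 (0.40). It was lower than at W2 for Dpysl3 (−1.94), Cnpy1 (−1.93), Pcsk1 (−1.50), Ptgds (−1.45), Glb1l2 (−1.24), Scg3 (−1.24), Hlf (−1.22), Tmem213 (−1.17), Chgb (−1.15), Bhlhe41 (−1.02) and Scg2 (−0.75). These genes were chosen for their changes at W12, so their number says nothing of how common such changes are.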

How the results depend on the processing

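Leaving out single W12 mice gave 1807 to 2226 genes higher and 1781 to 2189 lower, 69 to 172 and 33 to 118 genes whose difference departed from that at W4 in the positive and negative direction, 47 to 61 mitosis and 11 to 33 replication genes higher, 8 to 17 ER folding genes lower and 8 to 14 TCA cycle genes lower. With a change of at least 1.5-fold required, 1009 genes were higher and 484 lower. After the arrays were shifted to the same median, 3781 genes and 18 TCA cycle genes were lower. Without LH7725 and LH7727, 4917 genes had all Xb130-/- values below all Xb130+/+ values (fewer mice make separation easier), 32 mitosis, 5 replication and 12 integrin genes were higher, and 5 ER folding and 7 TCA cycle genes were lower, and the cause was not tested. Over 145 genes examined, 2291 of the single-gene values under an alternative kept direction and side of the threshold, 17 (5 genes) lost the call, 8 (4 genes) gained it and none reversed. The genes that lost it were Pth, Arntl, Lep, Ucp1 and Cd4, and those that gained it were Tg, Chga, Rag1 and Dntt. Signal over background is not known, so low values carry less certain differences. The labels give no pairing. No paired analysis was possible because replicate numbers were given in label order only.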
